A study of Mus musculus with 94 samples.

Results

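The 35 genes described here encode proteins that carry cells from G2 phase through mitosis and cytokinesis, and they were taken by their symbols from a table of 49080 mouse genes measured by RNA-Seq in 94 tumors. The tumors grew from 4T1 cells, a line of mouse mammary carcinoma, implanted under the skin of the right hind limb of female BALB/c mice at 8 weeks of age. Mice entered a group at a tumor size of 100 to 200 mm3, and tumors were collected 1, 3, 7, 15 or 23 days after IR. Tumors of the 6 Gy + INDO group (24 tumors) were irradiated with 6 Gy of x-rays and the mice drank indomethacin (INDO, an inhibitor of the COX enzymes that make prostaglandins) at 30 mg/L, tumors of the 6 Gy group (25) received the dose alone, mice of the INDO group (25) received the drug alone, and control tumors (20) were left without either treatment. Each treatment and day had 5 tumors, except 4 in 6 Gy + INDO on day 3 and 4, 5, 5, 3 and 3 controls on days 1, 3, 7, 15 and 23. All tumors came from 1 transplanted line, each library is the RNA of a whole tumor with its host cells, and the age of the mice at collection rose with the day.

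Cells enter mitosis when CDK1, bound to a B-type or A-type cyclin and freed of inhibitory phosphates by CDC25 phosphatases, becomes active, and they leave it when the anaphase-promoting complex marks cyclin B and securin for destruction. The mRNAs of these genes are low in G1, build up through S phase and peak in G2 and mitosis. Their promoters often carry a CHR element, bound by the MuvB core complex that represses them in quiescent cells and activates them in cycling cells together with B-MYB and FOXM1, and CCAAT boxes, bound by NF-Y. Ionizing radiation halts cells in G1 and in G2 through the DNA damage checkpoints, with p53 and p21 among the best known mediators.

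The promoters of 6 members are shown because Ccnb2, Ccnb1 and Ube2c had the 3 largest day 1 differences after 6 Gy and Cdk1, Cdc20 and Plk1 stand for the kinases and the anaphase activator they work with. Each stretch is the 120 bases just before the RefSeq start site on build GRCm38.p6 (equal to mm10), with CHR letters (TTTGAA, its complement TTCAAA, or TTCGAA) and CCAAT boxes (CCAAT or its complement ATTGG) in capitals. The stretches lie at chr9:70421555-70421674 (minus strand) for Ccnb2, chr13:100786487-100786606 (minus) for Ccnb1, chr2:164769809-164769928 (plus) for Ube2c, chr10:69352913-69353032 (minus) for Cdk1, chr4:118437344-118437463 (minus) for Cdc20 and chr7:122159315-122159434 (plus) for Plk1.
Ccnb2: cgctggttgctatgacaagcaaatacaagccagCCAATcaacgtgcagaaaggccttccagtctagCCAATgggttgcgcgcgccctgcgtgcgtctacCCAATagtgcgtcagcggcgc
Ccnb1: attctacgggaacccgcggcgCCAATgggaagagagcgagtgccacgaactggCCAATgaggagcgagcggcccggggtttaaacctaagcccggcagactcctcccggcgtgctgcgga
Ube2c: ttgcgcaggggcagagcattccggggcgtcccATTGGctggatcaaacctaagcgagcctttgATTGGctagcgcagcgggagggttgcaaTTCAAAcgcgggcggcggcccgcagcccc
Cdk1: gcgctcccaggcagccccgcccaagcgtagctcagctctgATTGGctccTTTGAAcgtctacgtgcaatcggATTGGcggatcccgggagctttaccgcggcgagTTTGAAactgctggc
Cdc20: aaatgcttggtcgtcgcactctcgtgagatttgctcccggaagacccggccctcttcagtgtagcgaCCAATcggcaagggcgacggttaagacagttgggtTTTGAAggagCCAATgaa
Plk1: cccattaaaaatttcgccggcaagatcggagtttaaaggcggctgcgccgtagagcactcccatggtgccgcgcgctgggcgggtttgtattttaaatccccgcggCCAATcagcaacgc

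All 6 stretches held at least 1 CCAAT box, and Ccnb2 held 3. The stretches of Ube2c, Cdk1 and Cdc20 also held CHR letters. The CHR letters of Ccnb2 and Plk1 lay outside the printed bases, and Ccnb1 had no CHR letters in the bases searched. A promoter entry, from 250 bases before the start to 50 after it, was at hand for 29 of the 35 members. CHR letters were present in 23 of these 29 (79.3%), against 19.4% of all 27025 promoters in the RefSeq table, and CCAAT boxes in 23 of 29 (79.3%), against 37.9%. Both were present in 20 of 29 (69.0%), against 7.7%. Nusap1, Pttg1 and Birc5 had neither. The match is to letters, and factor binding was not measured.

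Every member was counted in all 94 tumors, with at least 226 reads per gene and tumor, and all 35 passed the low-count filter of every fit, so that each of the members is in every comparison below. Total counts were 21.0 to 109.3 M per tumor, and 11 tumors stood apart with 326 to 1593 CPM of olfactory and vomeronasal receptor genes, against 40.7 to 145 CPM in the others. On day 1 the median total was 65.2 M in 6 Gy + INDO, 65.9 M in 6 Gy, 42.2 M in INDO and 70.0 M in control tumors, and the median share of mitochondrial counts was 7.50%, 3.52%, 5.76% and 3.58% in the same order. Levels are given as CPM (counts relative to the TMM-scaled library size), and differences as log2 fold changes from edgeR fits of all genes, with a gene called at a Benjamini-Hochberg adjusted p under 0.05. In bulk tumor RNA, fewer dividing cells and less of these mRNAs per cell cannot be told apart. No batch is named in the labels, and p-values measure the spread between these tumors.

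Per kilobase of exon, the day 1 control tumors expressed Top2a, the DNA topoisomerase of mitotic chromosomes, at 68.8 ± 2.15 CPM per kb (SD, n = 4) and Mki67, the proliferation antigen that coats mitotic chromosomes, at 53.7 ± 8.29 CPM per kb. These were the highest of the 35. They were also the highest in CPM not divided by length, at 620 and 540 CPM, and so weigh most in a sum of CPM over the members. Cdc25c, 1 of the phosphatases that activate CDK1, was the lowest at 3.02 ± 0.268 CPM per kb, and the spindle checkpoint kinase Ttk stood at 6.14 ± 0.631 CPM per kb.

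The first question was what a 6 Gy dose, with or without INDO, did to these genes 1 day after IR. In irradiated tumors, with or without the drug, nearly every mitotic mRNA averaged above the controls, and about as many passed the test as did not, while in tumors given INDO alone none passed. After 6 Gy + INDO, 17 of 35 members rose and none fell, where 10.7% of 22276 tested genes rose and 13.3% fell. After 6 Gy, 16 rose and none fell, where 6.15% of genes rose and 9.43% fell. After INDO no member was called in either direction, where 5.81% of genes rose and 8.89% fell. The median log2 fold change of the members was 0.46 after 6 Gy + INDO (all genes 0.02), 0.47 after 6 Gy (all genes 0.06) and 0.03 after INDO (all genes 0.04). Of the 35 log2 fold changes, 35 lay above 0 after 6 Gy + INDO, 33 after 6 Gy and 20 after INDO.

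**Figure D1:**
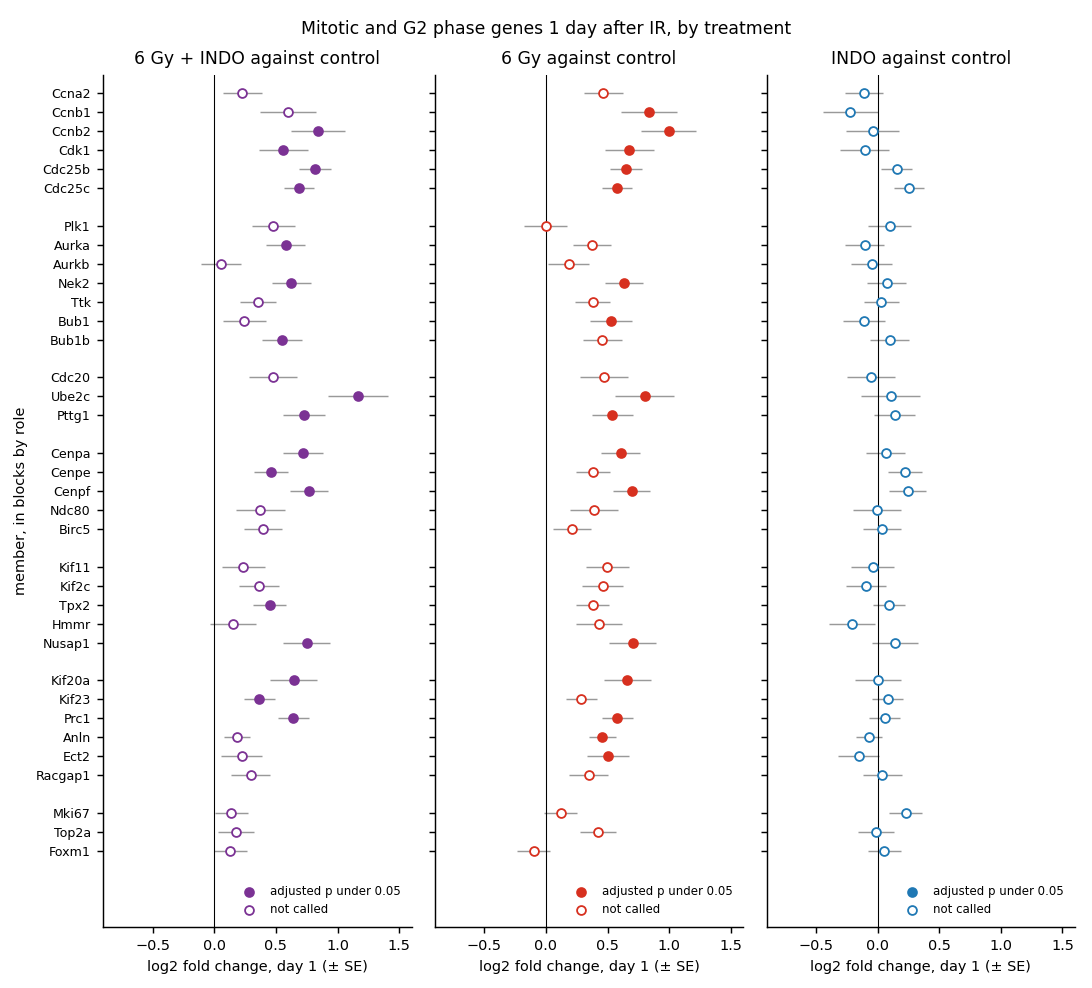
Log2 fold changes of the 35 genes on day 1 (x axis, ± SE) for 6 Gy + INDO, 6 Gy and INDO, each against the same 4 control tumors, with the genes in blocks by role on the y axis. Filled points have an adjusted p under 0.05, and there are 17, 16 and none in the 3 panels.

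The CDK1 switch comes first. Among the 6 cyclin, kinase and phosphatase genes, 4 rose after 6 Gy + INDO and 5 after 6 Gy, with median log2 fold changes of 0.64 and 0.66. Ccnb1 encodes cyclin B1, and its level was 124, 117, 136, 87.8 and 141 CPM in 6 Gy + INDO tumors, 93.8, 80.9, 180, 183 and 180 CPM in 6 Gy tumors, 49.1, 78.9, 66.5, 74.6 and 68.1 CPM in INDO tumors and 95.0, 81.8, 79.1 and 63.4 CPM in control tumors. The levels of 4 of the 5 combination tumors and 3 of the 5 tumors given 6 Gy stood above every control, while replicates 1 and 2 of 6 Gy lay within the control range and every INDO tumor was below the highest control. The log2 fold change of Ccnb1 was 0.84 after 6 Gy (SE 0.23, adjusted p = 0.0176), 0.60 after 6 Gy + INDO (SE 0.23, adjusted p = 0.0606, not called) and −0.22 after INDO (SE 0.22, adjusted p = 0.53).

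Ccnb2, which encodes cyclin B2, reached 101, 85.5, 101, 64.6 and 106 CPM after 6 Gy + INDO and 70.5, 58.8, 141, 125 and 115 CPM after 6 Gy, against 62.6, 52.8, 49.6 and 38.6 CPM in controls. The combination tumors all exceeded the highest control, and after 6 Gy replicate 2 did not. Its log2 fold change was 1.00 after 6 Gy (SE 0.22, adjusted p = 0.00508), the highest of the 35 in that comparison, and 0.84 after 6 Gy + INDO (SE 0.22, adjusted p = 0.00981). In INDO tumors Ccnb2 was at 40.3, 58.5, 46.5, 51.5 and 47.3 CPM, inside the range of the controls.

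Cdk1, the kinase that these cyclins activate, stood at 154, 147, 178, 118 and 154 CPM after 6 Gy + INDO, 119, 102, 223, 195 and 178 CPM after 6 Gy, and 121, 107, 99.4 and 79.8 CPM in controls. It was called after both treatments, with log2 fold changes of 0.56 (SE 0.20, adjusted p = 0.0476) for 6 Gy + INDO and 0.68 (SE 0.20, adjusted p = 0.0271) for 6 Gy, and groups overlapped in both. INDO tumors held 72.2, 102, 82.9, 105 and 104 CPM of Cdk1.

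The CDC25 phosphatases, which strip the inhibitory phosphates from CDK1, had the smallest p-values. Cdc25b was at 83.4, 79.1, 91.0, 55.8 and 85.0 CPM after 6 Gy + INDO and 63.8, 66.4, 71.6, 75.5 and 74.7 CPM after 6 Gy, against 51.8, 49.4, 39.4 and 38.0 CPM in controls, so that neither irradiated group overlapped the controls. The log2 fold changes of Cdc25b were 0.82 after 6 Gy + INDO (SE 0.13, adjusted p = 0.00016) and 0.65 after 6 Gy (SE 0.13, adjusted p = 0.00184), and those of Cdc25c were 0.69 (SE 0.12, adjusted p = 0.000465) and 0.58 (SE 0.12, adjusted p = 0.00323). Ccna2, the A-type cyclin, was not called in either comparison, with log2 fold changes of 0.23 after 6 Gy + INDO (SE 0.16, adjusted p = 0.309) and 0.47 after 6 Gy (SE 0.16, adjusted p = 0.0514).

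**Figure D2:**
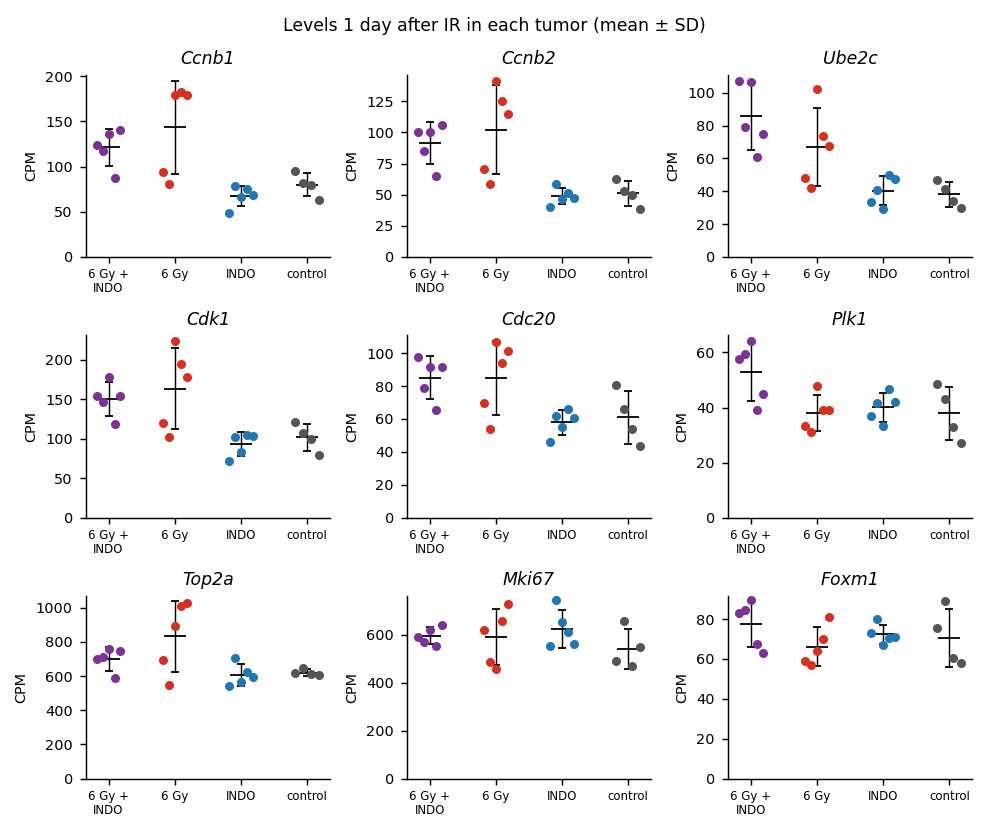
CPM of 9 members in each tumor on day 1 (points), with the group mean and SD (lines), for 6 Gy + INDO, 6 Gy, INDO and control tumors. In the 6 Gy group replicates 1 and 2 lie below the other 3 tumors for Ccnb1, Ccnb2, Cdk1 and Cdc20, while Foxm1, Mki67 and Plk1 overlap the controls in every treatment.

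Of the 7 mitotic kinases, 3 rose after 6 Gy + INDO (Aurka, Nek2 and Bub1b) and 2 after 6 Gy (Nek2 and Bub1). Plk1, the Polo-like kinase that triggers mitotic entry and centrosome maturation, was at 57.6, 59.4, 64.3, 39.0 and 44.9 CPM after 6 Gy + INDO, 33.1, 31.3, 47.9, 39.2 and 39.1 CPM after 6 Gy, 36.9, 41.6, 33.1, 46.7 and 42.0 CPM after INDO and 48.5, 43.1, 33.1 and 27.2 CPM in controls. The levels of 3 combination tumors lay above every control, and the 6 Gy and INDO tumors lay within the control range. The log2 fold change of Plk1 was 0.48 after 6 Gy + INDO (SE 0.18, adjusted p = 0.0545) and −0.00 after 6 Gy (SE 0.17, adjusted p = 0.997), neither of them called. Aurka, the centrosomal Aurora kinase, had log2 fold changes of 0.58 after 6 Gy + INDO (adjusted p = 0.0125) and 0.37 after 6 Gy (adjusted p = 0.117), and Aurkb, the Aurora kinase of centromeres and the midzone, had the lowest of the 35 after 6 Gy + INDO, 0.05 (SE 0.17, adjusted p = 0.848). Nek2, a kinase of centrosome separation, rose in both, with log2 fold changes of 0.62 (adjusted p = 0.00765) after 6 Gy + INDO and 0.63 (adjusted p = 0.0107) after 6 Gy. The checkpoint kinase genes differed in where they were called, Bub1b after 6 Gy + INDO (0.55, adjusted p = 0.0175), Bub1 after 6 Gy (0.53, adjusted p = 0.0441) and Ttk in neither (0.35, adjusted p = 0.0849, and 0.38, adjusted p = 0.0877).

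In the group that controls anaphase, 2 of 3 genes rose after each irradiation. Ube2c, the ubiquitin-conjugating enzyme of the anaphase-promoting complex, was at 107, 79.1, 106, 61.0 and 74.6 CPM after 6 Gy + INDO, 48.1, 42.2, 102, 73.9 and 67.3 CPM after 6 Gy, 33.6, 41.0, 29.4, 50.1 and 47.7 CPM after INDO and 46.9, 41.5, 34.2 and 29.8 CPM in controls. No combination tumor overlapped the controls, and the log2 fold change of 1.17 after 6 Gy + INDO (SE 0.24, adjusted p = 0.00198) was the highest of the 35. After 6 Gy it was 0.80 (SE 0.24, adjusted p = 0.0302), with replicate 2 inside the control range. On the other strand, 592 of the 2600 exon bases of Ube2c overlap Tnnc2, a troponin of fast skeletal muscle, whose day 1 level ran from 2.86 to 72.5 CPM in 6 Gy + INDO tumors, 0.0963 to 72.5 CPM in 6 Gy tumors, 2.12 to 239 CPM in INDO tumors and 22.0 to 70.6 CPM in control tumors. In all, 12 of the 35 members share exon bases with another gene of the table, 10 of them on the other strand, among them Kif20a with Cdc23 (1271 bases) and Prc1 with Rccd1 (911 bases). The sources used here do not say whether counting used the strand, and the part of these neighbors in the values was not tested.

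Pttg1, which encodes the separase inhibitor securin, rose in both, with log2 fold changes of 0.73 after 6 Gy + INDO (SE 0.17, adjusted p = 0.00416) and 0.54 after 6 Gy (SE 0.17, adjusted p = 0.0355). Cdc20, the activator that starts anaphase, was at 97.8, 79.0, 91.6, 65.3 and 91.4 CPM after 6 Gy + INDO, 69.6, 53.7, 107, 94 and 101 CPM after 6 Gy, 46.1, 62.0, 55.1, 66.1 and 60.3 CPM after INDO and 80.4, 66.2, 53.7 and 43.3 CPM in controls. Controls themselves ranged widely here and both irradiated groups overlapped them. Neither log2 fold change of Cdc20 passed, 0.48 after 6 Gy + INDO (SE 0.20, adjusted p = 0.0848) and 0.47 after 6 Gy (SE 0.20, adjusted p = 0.113).

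Among the 5 centromere and kinetochore genes, 3 rose after 6 Gy + INDO and 2 after 6 Gy. Cenpf, a large kinetochore protein, was at 335, 329, 373, 249 and 349 CPM after 6 Gy + INDO and 284, 227, 297, 378 and 376 CPM after 6 Gy, against 163, 235, 171 and 198 CPM in controls. The combination tumors stood apart from controls, and 4 of the 5 tumors given 6 Gy exceeded the highest control. Its log2 fold changes were 0.77 (SE 0.15, adjusted p = 0.00124) and 0.70 (SE 0.15, adjusted p = 0.00407) for 6 Gy + INDO and 6 Gy. Cenpa, the histone H3 variant that marks centromeres, rose in both with log2 fold changes of 0.72 (adjusted p = 0.00323) and 0.61 (adjusted p = 0.0151), and Cenpe, a kinetochore motor, rose after 6 Gy + INDO (0.46, adjusted p = 0.0214) and missed the threshold after 6 Gy (0.39, adjusted p = 0.0657). Ndc80, which anchors microtubules, and Birc5, the survivin subunit of the chromosomal passenger complex, were not called.

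Of the 5 genes of spindle motors and spindle factors, 2 rose after 6 Gy + INDO and 1 after 6 Gy. Nusap1, which bundles spindle microtubules, was called in both (log2 fold changes 0.75, adjusted p = 0.00768, and 0.70, adjusted p = 0.0167), and Tpx2, the activator of Aurora A, after 6 Gy + INDO (0.45, adjusted p = 0.0196). The motor genes Kif11 and Kif2c and the spindle gene Hmmr had log2 fold changes of 0.15 to 0.50 in the 2 comparisons and were not called.

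Of the 6 cytokinesis genes, 3 rose after 6 Gy + INDO and 4 after 6 Gy. Prc1, which crosslinks midzone microtubules, rose by log2 fold changes of 0.64 (SE 0.13, adjusted p = 0.00121) and 0.58 (SE 0.13, adjusted p = 0.00426), with no overlap between either irradiated group and the controls. Kif20a, a midzone motor, was called in both (0.64, adjusted p = 0.0195, and 0.66, adjusted p = 0.0244), Kif23, the motor of centralspindlin, after 6 Gy + INDO (0.37, adjusted p = 0.0418), and Anln, an actin-binding protein of the cleavage furrow (0.46, SE 0.11, adjusted p = 0.00657), and Ect2, the exchange factor that activates RhoA there (0.50, SE 0.17, adjusted p = 0.0498), after 6 Gy. Racgap1, the partner of Kif23, had log2 fold changes of 0.29 and 0.35 and was not called.

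Mki67, Top2a and Foxm1 gave no call in any of the 3 comparisons. Top2a was at 699, 710, 757, 587 and 750 CPM after 6 Gy + INDO, 693, 545, 891, 1011 and 1027 CPM after 6 Gy, 540, 706, 568, 627 and 594 CPM after INDO and 616, 648, 613 and 604 CPM in controls. The tightly grouped controls lay inside the range of each treatment, and the log2 fold change of 0.42 after 6 Gy (SE 0.15, adjusted p = 0.0607) came closest to a call. Mki67 was at 592, 568, 620, 555 and 640 CPM after 6 Gy + INDO, 619, 484, 458, 656 and 730 CPM after 6 Gy, 552, 746, 651, 610 and 561 CPM after INDO and 489, 655, 470 and 547 CPM in controls. Its log2 fold changes of 0.14 (SE 0.13), 0.12 (SE 0.13) and 0.23 (SE 0.13) for 6 Gy + INDO, 6 Gy and INDO had adjusted p-values of 0.488, 0.591 and 0.265.

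Foxm1, the transcription factor that activates many genes of the G2 program, was at 82.8, 84.4, 89.8, 67.5 and 62.9 CPM after 6 Gy + INDO, 58.9, 57.2, 63.8, 69.9 and 81.2 CPM after 6 Gy, 73.0, 79.9, 66.9, 70.5 and 71.1 CPM after INDO and 75.3, 89.0, 60.3 and 57.9 CPM in controls. The 4 groups overlapped. After 6 Gy its log2 fold change of −0.10 (SE 0.14, adjusted p = 0.657) was the lowest of the 35, and after 6 Gy + INDO it was 0.13 (SE 0.14, adjusted p = 0.52).

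The number of raised members varied between tumors of a group. After 6 Gy, replicates 3, 4 and 5 had 31, 33 and 33 of the 35 members above every day 1 control, and replicates 1 and 2 had 20 and 4. After 6 Gy + INDO, replicates 1, 2, 3 and 5 had 31 to 33 members above every control and replicate 4 had 10. The INDO tumors had 1, 18, 2, 5 and 3. Groups that did not overlap the controls were found for 10 members after 6 Gy + INDO, where 11.3% of all genes stood apart and higher, and for 4 after 6 Gy (Cdc25b, Cdc25c, Prc1 and Anln), where 4.74% did. Without replicate 2 the 6 Gy count of called members was 30, and it was 8 without replicate 4, 10 without replicate 5, 9 without control replicate 3 and 8 without control replicate 4. The 6 Gy + INDO count was 11 without control replicate 3. Scaling by 14 housekeeping genes put the median over all genes 0.16 lower (log2) after 6 Gy. It gave 9 members higher for 6 Gy, where 289 of 22276 genes rose and 2662 fell. The member median was then 0.30 against −0.09 for all genes.

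**Figure D3:**
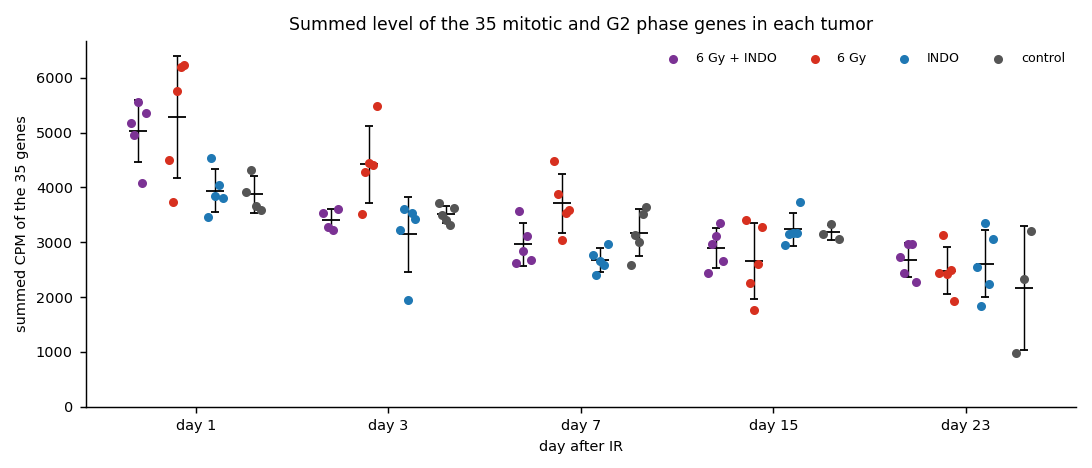
Summed CPM of the 35 genes in each of the 94 tumors (points), with the mean and SD of each group (lines), by day after IR on the x axis and with 6 Gy + INDO, 6 Gy, INDO and control from left to right within a day. On day 1 the means are 5031, 5288, 3939 and 3872 CPM.

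Host cell markers also moved on day 1. The summed level of 14 T cell genes was 57.8 to 72.2 CPM in 6 Gy + INDO, 57.1 to 85.9 CPM in 6 Gy and 46.2 to 79.9 CPM in INDO tumors, against 102 to 142 CPM in controls, and 14, 14 and 12 of them fell in the 3 comparisons. Of 8 adipocyte genes 7, 8 and 6 fell, with summed levels of 16.3 to 30.9 CPM, 15.5 to 32.9 CPM and 19.9 to 51.9 CPM, against 51.1 to 138 CPM in controls. Of 12 endothelial genes 9, 9 and 8 fell. No gene of these 3 lists was at 0 in all tumors of a group. Of 16 tumor epithelium genes 1 rose and 3 fell after 6 Gy + INDO, 3 rose after 6 Gy and none was called after INDO, and the median summed level was 3089, 3994, 3499 and 3409 CPM in 6 Gy + INDO, 6 Gy, INDO and control tumors. Of 11 tested macrophage genes 6 fell in each comparison, with summed levels of 927 to 1086 CPM, 918 to 1646 CPM and 885 to 988 CPM in 6 Gy + INDO, 6 Gy and INDO tumors, against 2536 to 3213 CPM in controls, and 1 of the 12 listed was at 0 in all tumors of 6 Gy + INDO and of 6 Gy. Of 12 fibroblast genes 5, 8 and 8 fell, with median summed levels of 6775, 6049 and 6664 CPM, against 10776 CPM in controls. Of 6 tested neutrophil genes 5, 4 and 4 fell, and of 5 tested B cell genes 3, 3 and 2. No gene of skeletal muscle or skin was called. The part of these markers in the member values was not tested.

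Genes outside the 35 that act in the same pathway gave these counts on day 1. Of 45 other G2 and mitosis genes, 16 rose after 6 Gy + INDO, 10 after 6 Gy and 1 after INDO, and none fell, with list medians of 0.31, 0.37 and 0.03. The spindle gene Aspm, for example, had log2 fold changes of 0.71 after 6 Gy + INDO and 0.72 after 6 Gy, and the kinetochore adaptor Knstrn 0.75 and 0.65. Of 31 DNA replication and S phase genes, 2 fell after 6 Gy + INDO (Ccne1 by 0.94 and Mcm6 by 0.45 on the log2 scale) and 2 rose after 6 Gy (Dbf4 and Rfc3). Of 20 p53 targets, 7 rose and 3 fell after 6 Gy + INDO, 7 rose and 1 fell after 6 Gy, and 2 rose and 6 fell after INDO. Of 20 regulators of mitotic entry, Gadd45a, a damage-induced inhibitor of CDK1, and Cdkn1a, which encodes p21, rose after 6 Gy + INDO, Gadd45a and the MuvB subunit Lin9 rose after 6 Gy, and Cdkn1a fell after INDO. The log2 fold change of Gadd45a was 1.67 after 6 Gy + INDO and 1.17 after 6 Gy, and that of Cdkn1a was 0.51 after 6 Gy + INDO and −0.50 after INDO. With housekeeping scaling the 6 Gy counts changed to 5 other G2 and mitosis genes higher, 0 S phase genes called, 1 p53 target higher and 1 lower, and 0 regulators higher and 2 lower, and after INDO 1 regulator was higher and 0 lower.

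Whether INDO changed the effect of 6 Gy on these genes on day 1 was asked in 3 further contrasts. Between 6 Gy + INDO and 6 Gy no member was called in edgeR (1.51% of genes rose and 3.16% fell), with 2 at an unadjusted p under 0.05. DESeq2 called 1 member, which fell, and 10.6% of all genes. The highest log2 fold change was that of Plk1, 0.48 (SE 0.16, adjusted p = 0.0922), and the lowest included Anln, −0.28 (SE 0.10, adjusted p = 0.105). Against INDO alone, 6 Gy + INDO gave a member median of 0.38 (all genes −0.02), with 34 of 35 above 0 and 26 at an unadjusted p under 0.05. No member passed the adjustment in edgeR, where 0.0135% of genes rose and 0.00449% fell. DESeq2 called 9 higher, where it called 0.759% of all genes in either direction. Without 6 Gy + INDO replicate 4 edgeR called 12 higher. The lowest adjusted p was that of Cdc25b (log2 fold change 0.66, adjusted p = 0.0734), and Ube2c had the highest log2 fold change, 1.06 (SE 0.23, adjusted p = 0.126). In this contrast 11 members stood apart and higher, where 2.43% of all genes did. The interaction of both treatments on the log2 scale called no member in edgeR or DESeq2, and none had an unadjusted p under 0.05, where 2.11% of genes had a positive and 0.126% a negative interaction. Its values ran from −0.24 for Top2a (SE 0.20, adjusted p = 0.68) to 0.38 for Plk1 (SE 0.24, adjusted p = 0.544).

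On day 3 members were called after 6 Gy and not after 6 Gy + INDO or INDO, and the difference between treatments was not tested on this day. After 6 Gy, 4 of 35 members rose and none fell, where 3.62% of 21814 genes rose and 4.1% fell, with a member median of 0.37 (all genes −0.01), no member below 0 and 21 at an unadjusted p under 0.05. Ccnb1 was at 54.3, 55.5, 62.0 and 68.1 CPM after 6 Gy + INDO, 98.9, 106, 118, 108 and 145 CPM after 6 Gy, 69.4, 69.7, 26.7, 61.2 and 62.2 CPM after INDO and 60.2, 73.7, 73.8, 66.3 and 81.0 CPM in controls. All 5 tumors given 6 Gy exceeded the highest control, and the combination tumors did not. The called members were Ccnb1 (log2 fold change 0.69, SE 0.20, adjusted p = 0.0375), Ccnb2 (0.63, SE 0.18, adjusted p = 0.0446), Pttg1 (0.61, SE 0.17, adjusted p = 0.0321) and Cenpa (0.39, SE 0.10, adjusted p = 0.0283). Groups stood apart for 11 members, where 6.32% of all genes stood apart and higher. Birc5 had the lowest log2 fold change, 0.00 (SE 0.15).

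The day 3 count for 6 Gy moved with single tumors. It was 0 without 6 Gy replicate 2, 3 or 5 or control replicate 4, and 2 without control replicate 1 or 3. It was 7 without 6 Gy + INDO replicate 2, 8 without 6 Gy replicate 1 and 19 without INDO replicate 3. Tumors of all 4 groups of the day share 1 fit, and the reason for these shifts was not tested. DESeq2 called 15 members (14.2% of all genes in either direction), RLE factors 10 (9.4%), and the unfiltered fit none (2.03%). None of the 4 calls lasted through all alternatives.

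After 6 Gy + INDO on day 3 no member was called, where 10.1% of genes rose and 9.43% fell, with a member median of −0.01 and 16 members above 0. Replicates 1, 2 and 4 of this group had over 300 CPM of receptor counts. Without them 1 tumor was left, so that such a fit cannot show whether the share of all genes rests on them. Its member median was −0.04. With all tumors of the group, values ran from −0.46 for Aurkb (SE 0.21, adjusted p = 0.125) to 0.39 for Cenpf (SE 0.17, adjusted p = 0.11). Of the members, 3 had an unadjusted p under 0.05 and DESeq2 called none, where it called 24.2% of all genes. Leaving out INDO replicate 3 gave 2 higher and 1 lower. Housekeeping scaling, which raised the median of all genes by 0.33, gave 10 members higher, where 5335 of 21814 genes rose and 579 fell. INDO alone called no member by edgeR, where 2.38% of genes rose and 3.95% fell, or by DESeq2, which called 12.7% of genes. Its median was −0.22, with 33 of 35 below 0, 4 at an unadjusted p under 0.05 and values from −0.45 for Aurka (SE 0.16, adjusted p = 0.0859) to 0.17 for Cdc25b (SE 0.13, adjusted p = 0.413). INDO replicate 3 had 32 members below every control. In the INDO tumors of this day the summed level of 8 B cell genes ran from 4.74 to 832 CPM (median 7.67 CPM). That of 14 T cell genes ran from 58.3 to 463 CPM (median 61.7 CPM). The part of these host cells in the member values was not tested.

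On day 7 few members were called. After 6 Gy and after INDO their share was close to that of all genes in the direction of the calls. In the other direction no member was called in these 2 comparisons, where 10.3% and 12.7% of genes were. After 6 Gy + INDO the share was below that of all genes in both directions. With TMM scaling the called members rose after 6 Gy, fell after INDO and did both after 6 Gy + INDO. With housekeeping scaling 1 member rose and 1 fell after INDO, where 3499 of 21874 genes rose and 900 fell. After 6 Gy + INDO 15 members rose and none fell with that scaling, where 8293 genes rose and 1656 fell. After 6 Gy, 3 members rose and none fell, where 5.69% of 21874 genes rose and 10.3% fell, with a median of 0.21 (all genes 0.02). They were Cenpf (log2 fold change 0.34, SE 0.10, adjusted p = 0.0235), Anln (0.41, SE 0.12, adjusted p = 0.0256) and Cdc25b (0.35, SE 0.12, adjusted p = 0.0475). After INDO, 5 fell and none rose, where 12.7% of genes rose and 11.7% fell, with a median of −0.23 and 30 below 0. They were Kif20a (−0.54, SE 0.14, adjusted p = 0.0106), Aurka (−0.44, SE 0.11, adjusted p = 0.0123), Kif2c (−0.41, SE 0.12, adjusted p = 0.0244), Hmmr (−0.44, SE 0.14, adjusted p = 0.0313) and Ccnb2 (−0.50, SE 0.17, adjusted p = 0.0371). Ccnb2 was at 33.3, 46.7, 28.5, 37.9 and 33.6 CPM after 6 Gy + INDO, 80.5, 61.7, 38.8, 47.7 and 52.1 CPM after 6 Gy, 31.1, 25.9, 31.6, 30.9 and 31.3 CPM after INDO and 33.5, 39.8, 39.0, 61.3 and 48.1 CPM in controls. Every INDO tumor was below the lowest control for this gene, and 2 members, Ccnb2 and Kif20a, stood apart in this way, where 10.8% of all genes did.

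After 6 Gy + INDO on day 7, 2 members rose and 5 fell, where 24.8% of genes rose and 21.2% fell, so that the share called was below that of all genes in both directions. Cdc20 (log2 fold change −0.49, SE 0.14, adjusted p = 0.00979), Aurkb (−0.39, SE 0.11, adjusted p = 0.0103), Kif2c (−0.38, SE 0.12, adjusted p = 0.0179), Cdk1 (−0.47, SE 0.16, adjusted p = 0.0193) and Aurka (−0.31, SE 0.11, adjusted p = 0.0317) fell, and Cdc25b (0.38, SE 0.12, adjusted p = 0.0132) and Cenpf (0.28, SE 0.10, adjusted p = 0.0266) rose. Cdc20 was at 37.9, 40.0, 23.2, 38.9 and 33.5 CPM after 6 Gy + INDO against 37.9, 51.7, 49.4, 58.5 and 61.3 CPM in controls, and the groups overlapped. With housekeeping scaling the median of all genes was 0.31 higher. Without tumors over 300 CPM of olfactory and vomeronasal receptor counts, which left 2 of the 5 tumors, 1 member rose and none fell, where 20.6% of 22906 genes were called. The member median was −0.10 against 0.03 for all genes with TMM and 0.22 against 0.34 with housekeeping scaling. Of 14 housekeeping genes, 1 rose and 9 fell in this comparison under TMM.

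Counts on day 7 also rested on single tumors. For 6 Gy the count was 0 without 6 Gy replicate 2 or control replicate 2, 1 without 6 Gy replicate 1, 4 or 5 or control replicate 1, 7 without 6 Gy replicate 3 and 6 without control replicate 4. For INDO it was 2 without INDO replicate 2 or 3 or control replicate 4 or 5, 3 without INDO replicate 1 or 4, 13 without control replicate 1 and 16 without 6 Gy + INDO replicate 2. For 6 Gy + INDO it was 3 without 6 Gy + INDO replicate 3, 4 without control replicate 4 and 12 without 6 Gy + INDO replicate 2. Stromal markers were lower in all 3 treatments on this day, with 12, 11 and 11 of 12 fibroblast genes and 10 of 12 endothelial genes in each called lower for 6 Gy + INDO, 6 Gy and INDO, and their part in the member values was not tested.

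**Figure D4:**
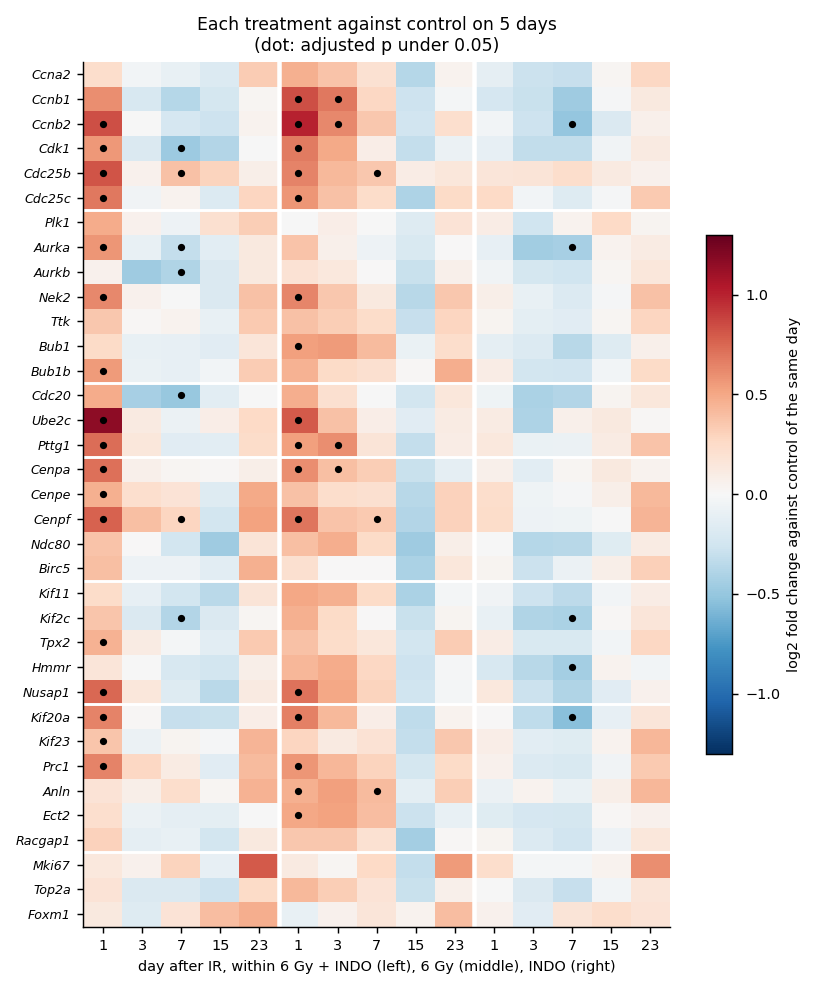
Log2 fold change (color) of each of the 35 genes (rows, by role) against the control of the same day, on days 1, 3, 7, 15 and 23 for 6 Gy + INDO (left block), 6 Gy (middle) and INDO (right). Dots mark an adjusted p under 0.05, and no dot lies on day 15 or 23.

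On days 15 and 23 no member was called for any treatment by edgeR or DESeq2. Against the 3 controls of each day edgeR called no gene for 6 Gy or INDO (0% in each direction), where DESeq2 called 28 and 156 genes on day 15 and 174 and 122 on day 23, and for 6 Gy + INDO in edgeR 0.778% of genes rose and 0.552% fell on day 15 and 0% rose and 0.00473% fell on day 23. At an unadjusted p under 0.05 there were none, 3 and none of the 35 for 6 Gy + INDO, 6 Gy and INDO on day 15, and 1, none and none on day 23. The member medians were −0.15, −0.29 and 0.02 on day 15 and 0.24, 0.14 and 0.15 on day 23. The 6 Gy tumors of day 15 were split. Replicates 2, 3 and 4 had 33, 34 and 30 members below every control of the day, and replicates 1 and 5 had 2 each. Replicates 1 and 5 also had 13 and 8 members above every control. Ndc80 had the lowest log2 fold change on day 15 in the irradiated groups, −0.47 after 6 Gy + INDO (SE 0.22, adjusted p = 0.252) and −0.46 after 6 Gy (SE 0.22, adjusted p = 0.748). On day 23 Mki67 had the highest in each treatment, 0.79 (SE 0.32, adjusted p = 0.143), 0.55 (SE 0.32, adjusted p = 0.423) and 0.60 (SE 0.32, adjusted p = 0.403) for 6 Gy + INDO, 6 Gy and INDO.

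In every group the members were lower on day 23 than on day 1, and the days between did not always lie in order. The summed level of INDO tumors averaged 3939, 3148, 2678, 3235 and 2608 CPM on days 1, 3, 7, 15 and 23, with 2404 to 2975 CPM on day 7 and 2943 to 3740 CPM on day 15. Against day 1, the day 23 tumors had 35 of 35 members lower in 6 Gy + INDO (10.7% of 25516 genes fell), 35 of 35 in 6 Gy (12.5% of 21817), 29 in INDO (13.9% of 20897) and 24 in control tumors (14.1% of 23203), and none higher. The member medians were −1.08, −1.08, −0.67 and −0.85, against −0.10 for all genes in controls. Groups of the 2 days did not overlap for 34, 28, 20 and 18 members, where 8.52%, 6.05%, 8.97% and 21.5% of genes stood apart and lower. Tumor volumes were not used here, and day and the age of the mice cannot be told apart.

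In day 23 tumors, Ccnb1 was at 51.1, 37.9, 59.9, 47.5 and 45.9 CPM after 6 Gy + INDO, 51.0, 53.7, 47.3, 44.2 and 41.5 CPM after 6 Gy, 63.9, 32.6, 67.8, 45.3 and 55.4 CPM after INDO and 21.6, 55.4 and 69.1 CPM in controls. Both irradiated groups were below all of their day 1 tumors, and the INDO and control groups overlapped theirs. Its log2 fold change against day 1 was −1.36 in 6 Gy + INDO (SE 0.14, adjusted p = 1.04e-06), −1.56 in 6 Gy (SE 0.23, adjusted p = 5.08e-05), −0.37 in INDO (adjusted p = 0.184) and −0.71 in controls (adjusted p = 0.0548). Ube2c fell by 1.92 on the log2 scale in 6 Gy + INDO (SE 0.20, adjusted p = 8.6e-07) and by 1.62 in 6 Gy (SE 0.22, adjusted p = 2.58e-05), the largest falls of the 35 in those groups. In INDO tumors Plk1 fell furthest, with a log2 fold change of −1.24 (SE 0.21, adjusted p = 0.000156), and in controls Foxm1, with −1.20 (SE 0.32, adjusted p = 0.00936). Foxm1 was at 51.2, 31.7, 47.4, 36.9 and 39.5 CPM in 6 Gy + INDO, 37.3, 62.5, 34.6, 38.6 and 27.2 CPM in 6 Gy, 31.2, 21.5, 43.5, 31.7 and 43.0 CPM in INDO and 13.0, 31.1 and 47.5 CPM in control tumors on day 23.

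Mki67, Plk1 and Top2a, which were not called on day 1, fell over the course too. Mki67 had log2 fold changes of −0.45 in 6 Gy + INDO (SE 0.14, adjusted p = 0.0278), −0.58 in 6 Gy (SE 0.20, adjusted p = 0.033), −0.67 in INDO (SE 0.15, adjusted p = 0.00258) and −1.01 in controls (SE 0.28, adjusted p = 0.0106), and it was the smallest fall of the 35 in the irradiated groups. Plk1 fell in all 4, with log2 fold changes of −1.38, −0.96, −1.24 and −1.15 (adjusted p = 2.81e-05, 0.00148, 0.000156 and 0.0131). Top2a had −0.75, −1.08, −0.60 and −0.74 (adjusted p = 0.000355, 0.000317, 0.00813 and 0.0397). Cdk1, which was called higher on day 1 in both irradiated groups, fell in those groups (−1.09 and −1.19, adjusted p = 2.82e-05 and 0.000172). It was not called in INDO (−0.26, adjusted p = 0.33) or control tumors (−0.45, adjusted p = 0.146).

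**Figure D5:**
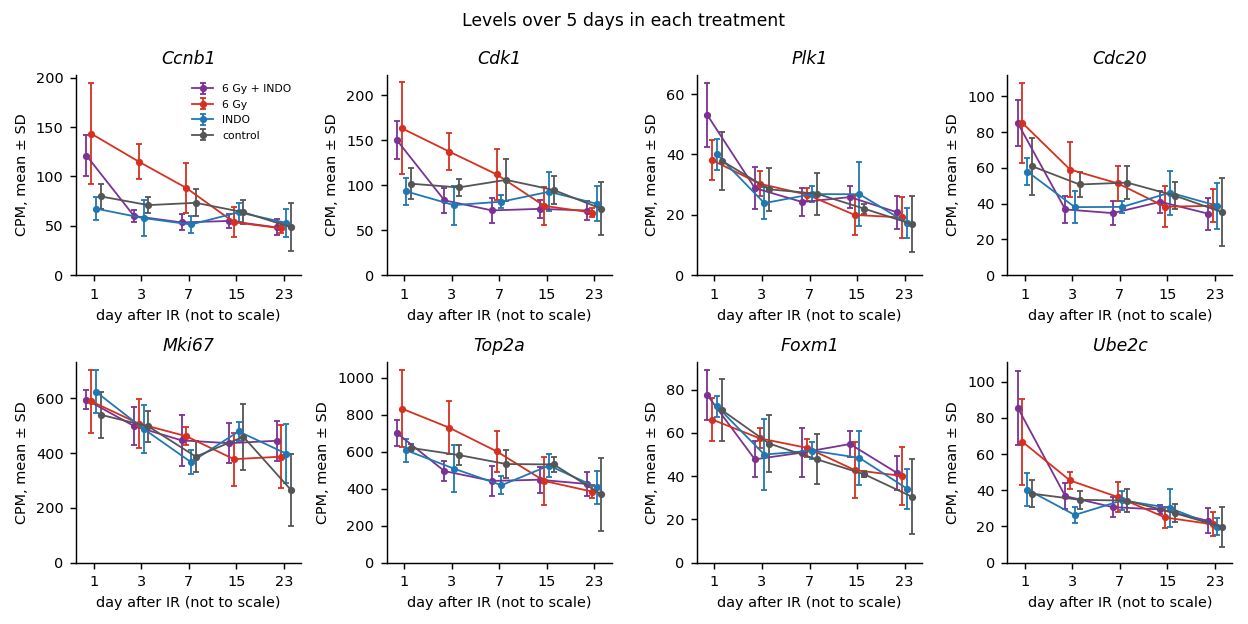
CPM (mean ± SD) of 8 members on days 1, 3, 7, 15 and 23 in 6 Gy + INDO, 6 Gy, INDO and control tumors, with 3 to 5 tumors per point. For Ccnb1 the 6 Gy line lies above the controls through day 7, while the 6 Gy + INDO line lies above them on day 1.

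The control course rests on few tumors. Control replicate 1 of day 23 had a summed member level of 971 CPM, against 2320 and 3213 CPM in the other two, and the count of members lower than on day 1 was 10 without replicate 1 and 13 without replicate 2. It was 34 to 35 in 6 Gy, 34 to 35 in 6 Gy + INDO and 21 to 32 in INDO with any 1 tumor left out. Among 45 other G2 and mitosis genes 42, 41, 35 and 29 fell from day 1 in 6 Gy + INDO, 6 Gy, INDO and control tumors, and among 31 S phase genes 18, 21, 11 and 18 fell. Neutrophil markers went the other way, with 7, 7, 9 and 6 of 9 tested genes higher on day 23 and median summed levels of 236, 377, 686 and 302 CPM on day 23, against 22.5, 24.8, 26.9 and 84.5 CPM on day 1. Their part in the fall of the members was not tested.

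A change of any shape over the 5 days was called for 35 members in 6 Gy + INDO (31.6% of genes), 34 in 6 Gy (25.1%, Mki67 the exception), 27 in INDO (29.8%) and 7 in control tumors (27.1%). Without INDO replicate 2, 4 or 5 of day 1 or replicate 4 of day 7 the INDO count was 16 to 17, and the control count ran from 1 to 25 when a control was left out, with 25 without replicate 3 of day 23. Whether a treatment's effect depended on the day was tested directly. It did so for 9 members in 6 Gy + INDO, where 28.6% of 28822 genes did, and for none in 6 Gy (3.53%) or INDO (1.93%) in edgeR or DESeq2, with 9 and none at an unadjusted p under 0.05. The 9 were Cdk1 (adjusted p = 0.0105), Nusap1, Ube2c, Ccnb2, Kif20a, Ccnb1, Aurka, Pttg1 and Cdc25b (adjusted p = 0.0483), a share of the 35 close to that of all genes. For 6 Gy the lowest adjusted p was that of Cdk1, 0.149. Without day 1 the 6 Gy + INDO count was 0, where 12.7% of 27993 genes were called. The count was 2 to 5 without 6 Gy + INDO replicate 1, 3 or 5 of day 1, control replicate 3 or 4 of day 1 or control replicate 1 of day 15. It was 19 and 27 without control replicates 1 and 3 of day 23. The 6 Gy count was 5 without control replicate 1 of day 23 and 1 without replicate 3.

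Across the 94 tumors the members moved together within groups. Deviations of log2(CPM + 1) from the group mean gave correlations of 0.28 to 0.97 over the 595 pairs of members, with a median of 0.82, a description of points that share library, depth and tumor content. Racgap1 (r = 0.96), Kif2c (0.96) and Tpx2 (0.95) followed the mean of the other members most closely. Cdc25b (0.54), Mki67 (0.70), Foxm1 (0.70) and Plk1 (0.74) followed it least. Members not called on day 1 stood at both ends, with Racgap1 and Kif2c at the upper and Mki67, Foxm1 and Plk1 at the lower.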

How the data were processed

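RNA-Seq of 94 tumors was deposited by the authors as 1 table of expected counts of 49080 genes, not normalized, on mm10. Their processing notes list Cutadapt, STAR and Partek 11.0.24.0328 without roles, and no source used here names the counter. The labels name a TruSeq Stranded kit and the methods another Illumina stranded kit. The 35 members and the other lists were chosen with earlier results of these data known. Expected counts were rounded to whole numbers and fitted in R 4.3.3 with edgeR 4.0.16 (filterByExpr with a minimum count of 10, TMM, quasi-likelihood F test, Benjamini-Hochberg over all genes), with the 4 groups of a day in 1 fit, the 5 days of a treatment in 1 fit, and a treatment with its controls over all days in 1 fit. This replaced the authors' Partek test. In all, 29 comparisons were made. The SE is the log2 fold change over the square root of F. Every member is named, and full values are given for 7 preset genes, the 3 highest and lowest after 6 Gy on day 1 and the called members with the smallest p-values. Promoters came from the RefSeq table of GRCm38.p6. The alternatives tried were DESeq2 1.42.0, RLE factors, no filter, scaling by 14 housekeeping genes, 1 fit of all tumors, a replicate block, no tumors over 300 CPM of receptor counts, and leaving out each tumor or day. Scripts were tested on simulated data, and figures were drawn with matplotlib 3.10.9.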

Additional observations from a re-analysis of the deposited data

Results flagged for a closer look

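In INDO tumors of day 3, replicate 3 stood far below the other 4, with a summed level of 1948 CPM over the 35 genes (nearest tumor 3231 CPM), and the same tumor was far below for Ccnb1 at 26.7 CPM (nearest 61.2 CPM), Cdk1 at 39.7 CPM (nearest 81.5 CPM) and Top2a at 285 CPM (nearest 520 CPM). The summed level of 8 B cell genes in this group ran from 4.74 to 832 CPM (median 7.67 CPM), and the part of host cells in these values was not tested. In INDO tumors of day 15, replicate 5 stood far above the others for Plk1 at 45.5 CPM (nearest 23.7 CPM) and Foxm1 at 69.9 CPM (nearest 47.7 CPM). In 6 Gy + INDO tumors of day 15, replicate 4 was far above the others for Cdc20 at 51.6 CPM. Of 18 group sums 1 was set apart in this way, and of 126 sets of 1 gene in 1 group 6 were, where chance sets apart about 1 in 20. For 9 members the difference between 6 Gy + INDO and control tumors changed over the 5 days by the test of that change itself, a share close to the 28.6% of all 28822 genes. Without day 1 the count was 0, where 12.7% of 27993 genes were called. Leaving out the tumors over 300 CPM of receptor counts left 1 tumor of 6 Gy + INDO on day 3. The member count and the share of all genes were both lower in that fit.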

How the results depend on the processing

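Counts of members called were recomputed for all 29 comparisons. Only counts that moved by a large ratio from the main count (in parentheses) or turned in direction are listed. Smaller moves are left out, such as 23 with DESeq2 and 12 without a filter after 6 Gy on day 1 (16). Others were 13 to 21 after 6 Gy + INDO on day 1 (17) and 18 to 31 in controls from day 1 to day 23 (24). A percentage is the share of all tested genes called in that setting, in either direction. After 6 Gy on day 1 (16) the count was 9 with housekeeping scaling (13.2%) and 9 with the replicate block (13.2%). Between 6 Gy + INDO and 6 Gy on day 1 (0) it was 1 with DESeq2 (10.6%) and 1 with housekeeping scaling (4.67%). Against INDO (0) it was 9 with DESeq2 (0.759%) and 2 with all 94 tumors in 1 fit (0.0409%). After 6 Gy on day 3 (4) it was 15 with DESeq2 (14.2%), 10 with RLE factors (9.4%), 0 without a filter (2.03%) and 2 without the tumors over 300 receptor CPM. After 6 Gy + INDO (0) it was 10 with housekeeping scaling (27.1%). On day 7 after 6 Gy (3) it was 5 with DESeq2 (20.6%), 0 with all tumors in 1 fit (11.1%) and 6 with housekeeping scaling (12.9%). It was 0 without a filter (5.63%) and 1 with the replicate block (13.2%). After INDO (5) it was 8 with DESeq2 (30.1%), 2 with all tumors in 1 fit (18.5%), 2 with housekeeping scaling (20.1%) and 3 with the block (17.2%). After 6 Gy + INDO on day 7 (7) it was 4 with all tumors in 1 fit (55.8%). The balance turned to 15 higher with housekeeping scaling (45.5%, with 8293 genes higher and 1656 lower) and 1 higher without the receptor tumors (20.6%). After 6 Gy + INDO on day 23 (0) all tumors in 1 fit gave 1 (22.9%). Changes over the days in controls (7) were called for 12 members with DESeq2 (37.2%), 19 with all tumors in 1 fit (30.2%), 2 with the block (20.3%) and 2 without receptor tumors (25.5%). In INDO (27) they were called for 15 without receptor tumors (25%). Dependence on the day was called for 4 in 6 Gy (0) without day 23 (2.98%). In 6 Gy + INDO (9) it was called for 2 with housekeeping scaling (29.2%), 0 without day 1 (12.7%), 4 without day 7 (25.2%), 1 without day 15 (5.67%) and 20 without day 23 (27.3%). Without receptor tumors, which left 1 tumor of this group on day 3, the count and the share of all genes were both lower. The cause of these shifts was not tested.

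With 1 tumor left out, counts ran from 8 to 30 for 6 Gy and 11 to 22 for 6 Gy + INDO on day 1, 0 to 2 for 6 Gy + INDO against 6 Gy, 0 to 12 against INDO, 0 to 19 for 6 Gy and 0 to 3 for 6 Gy + INDO on day 3, and 0 to 7, 2 to 16 and 3 to 12 for 6 Gy, INDO and 6 Gy + INDO on day 7. From day 1 to day 23 they ran from 34 to 35 in 6 Gy + INDO, 34 to 35 in 6 Gy, 21 to 32 in INDO and 10 to 34 in controls, for any change 34 to 35, 33 to 35, 16 to 32 and 1 to 25 in the same order, and for dependence on the day 2 to 27 in 6 Gy + INDO and 0 to 5 in 6 Gy. In the other comparisons the count was 0 throughout. Of 175 called values of single members none changed sign in any alternative. DESeq2 lost 0 of these calls, RLE factors 6, all tumors in 1 fit 26, housekeeping scaling 23, no filter 31, the block 18 and leaving out receptor tumors 23. In every alternative, 6 of 16 calls lasted after 6 Gy and 11 of 17 after 6 Gy + INDO on day 1, 0 of 4 after 6 Gy on day 3, and 0 of 7, 0 of 3 and 1 of 5 after 6 Gy + INDO, 6 Gy and INDO on day 7. From day 1 to day 23 it was 34 of 35 in 6 Gy + INDO, 33 of 35 in 6 Gy, 20 of 29 in INDO and 10 of 24 in controls.

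Replicate numbers were not treated as pairs, and whether they pair tumors was not settled. Deviations of same-numbered tumors had a median correlation of 0.023, against −0.013 for other numbers. Of these pairs 46 of 132 exceeded 0.1, against 157 of 528. The days differed, with 12 of 24 against 23 of 96 on day 23 and 11 of 24 against 25 of 96 on day 15. On day 7 it was 7 of 30 against 40 of 120, and on day 1 it was 6 of 27 against 33 of 108. Housekeeping scaling moved the share of higher calls among all called genes from 39.5% to 9.79% (6 Gy) on day 1, from 37.6% to 21.4% (INDO) and 51.7% to 90.2% (6 Gy + INDO) on day 3, from 52.0% to 79.5% (INDO) and 53.9% to 83.4% (6 Gy + INDO) on day 7, from 58.5% to 74.5% (6 Gy + INDO) on day 15, from 32.4% to 93.2% between 6 Gy + INDO and 6 Gy, and from day 1 to day 23 from 53.2% to 76.0% (6 Gy + INDO), 50.2% to 66.9% (6 Gy) and 51.4% to 39.4% (INDO). RLE factors moved it from 46.9% to 58.0% for 6 Gy on day 3. Between 6 Gy + INDO and INDO too few genes were called for a share, 3 higher and 1 lower with TMM and 0 higher and 1 lower with housekeeping scaling.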

Other observations

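On day 7, of 31 genes of DNA replication and S phase 16 fell after 6 Gy + INDO, 0 were called after 6 Gy and 7 fell after INDO, with median log2 fold changes of −0.37, 0.03 and −0.22. With housekeeping scaling 6 rose and 4 fell after 6 Gy + INDO, 0 were called after 6 Gy and 1 fell after INDO (medians −0.07, 0.05 and −0.01). Among the 20 regulators of mitotic entry, day 23 tumors had more Gadd45a than day 1 tumors in every group, with log2 fold changes of 0.74 in 6 Gy + INDO (adjusted p = 0.014), 2.04 in 6 Gy (adjusted p = 0.000153), 1.74 in INDO (adjusted p = 0.00029) and 3.94 in control tumors (adjusted p = 1.97e-05). Mybl2, which encodes the MuvB partner B-MYB, fell in the same comparisons, with log2 fold changes of −0.90, −1.01, −1.03 and −1.66 (adjusted p = 0.000385, 0.00301, 0.00363 and 0.00129).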
